A study of Homo sapiens with 6 samples.

Results

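The nuclear-encoded genes of oxidative phosphorylation were examined in cells of the established human glioblastoma line U87 after exposure to rutaecarpine, an alkaloid of Evodia rutaecarpa studied as an activator of the aryl hydrocarbon receptor (AhR). RNA-Seq libraries came from cells given 100 μM rutaecarpine for 48 h (n = 3) and from solvent control cells given 0.1% DMSO for the same time (n = 3), and the treated cells received the compound in the same final share of DMSO. All libraries came from one line with no genetic change between the groups, and serum-free medium was used for dosing. The labels number the libraries 1 to 3 in each group without saying that they came from separate cultures, so the p values measure only the spread between these libraries, which may be technical. Genes were taken by name, as those starting with NDUFA, NDUFB, NDUFC, NDUFS or NDUFV and then a digit (complex I), SDHA to SDHD (complex II), UQCR (complex III), COX4 to COX8 (complex IV) or ATP5 (complex V). Of 96 matching names, 10 were dropped as pseudogenes and 6 because their level was below 1 TPM (a transcript level scaled by transcript length and by the total of the library) in every library. The remaining 80 of the 60671 genes in the table comprised 36 genes of complex I, 8 of complex II, 8 of complex III, 12 of complex IV and 16 of complex V. NDUFA4 was counted with complex IV, to which its protein belongs. All 80 genes passed the filter for testing, which required 1 TPM or more in 3 or more libraries and left 14377 genes.

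Oxidative phosphorylation takes electrons from NADH at complex I and from succinate at complex II, passes them through complex III and cytochrome c to oxygen at complex IV, and uses the proton gradient that builds up to make ATP at complex V, the ATP synthase. Most subunits are encoded in the nucleus and imported, while the core membrane subunits of complexes I, III, IV and V are encoded in mitochondrial DNA. Glioblastoma cells are known to combine high glycolysis with a working respiratory chain.

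Of the 80 genes, 72 encode subunits. The other 8 were the complex II assembly factors SDHAF1, SDHAF2, SDHAF3 and SDHAF4, the ATP synthase inhibitor ATP5IF1, COX7A2L, which links complexes III and IV into a supercomplex, the NDUFA4 paralog NDUFA4L2, and the antisense transcript NDUFV2-AS1. A further 4 subunits (NDUFS3, NDUFA7, ATP5MF and ATP5PO) carry no gene name in the table and were read by their identifiers. None of these 4 passed the test, and their log2 fold changes lay between -0.16 (ATP5MF) and 0.13 (NDUFA7). The labelled cell line was checked against its markers. The mesenchymal genes VIM (4430 to 7968 TPM), FN1 (2816 to 6721 TPM) and CD44 (415 to 837 TPM) were high in every library. The glial genes GFAP (3.48 to 5.41 TPM), OLIG2 (1.48 to 4.11 TPM), S100B (at most 0.25 TPM) and SOX2 (at most 0.06 TPM) were low. OLIG2 was higher in every treated library than in any control. NES, a further marker, lay between these sets at 12.29 to 21.02 TPM and was lower in every treated library than in any control. CDKN2A, CDKN2B and MTAP, which lie in a stretch of the genome known to be lost in U87 cells, did not exceed 0.06 TPM. Markers of leukocytes (PTPRC), hepatocytes (ALB), neurons (RBFOX3) and epithelium (EPCAM) stayed at or below 0.80 TPM, and the endothelial gene PECAM1 reached 1.33 TPM.

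Control replicate 3 differed from the other libraries over these genes, so the comparison over all 80 genes and the calls of single genes are also given without it. It held the highest value of the 6 libraries for 54 of the 80 genes (67.5%), against 15.3% of all genes tested, and the lowest value for 5.0% of them, against 47.0% of all genes. For each gene, the deviation of that library from the mean of control replicates 1 and 2 was taken in log2(TPM + 1). The median deviation was 0.27 over the 80 genes and -0.24 over all genes tested. Transcript length moved with this difference. The median transcript length was 716 bases for the 80 genes and 2048 bases for all genes tested. The 57 members with transcripts under 1000 bases had a median deviation of 0.30 and the other 23 one of 0.21, while the medians over all tested genes were 0.02 under 1000 bases and -0.30 from 1000 bases. The part of transcript length in the results was not tested. A fit with every library corrected for transcript length and GC content is given beside the main one.

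**Figure D1:**
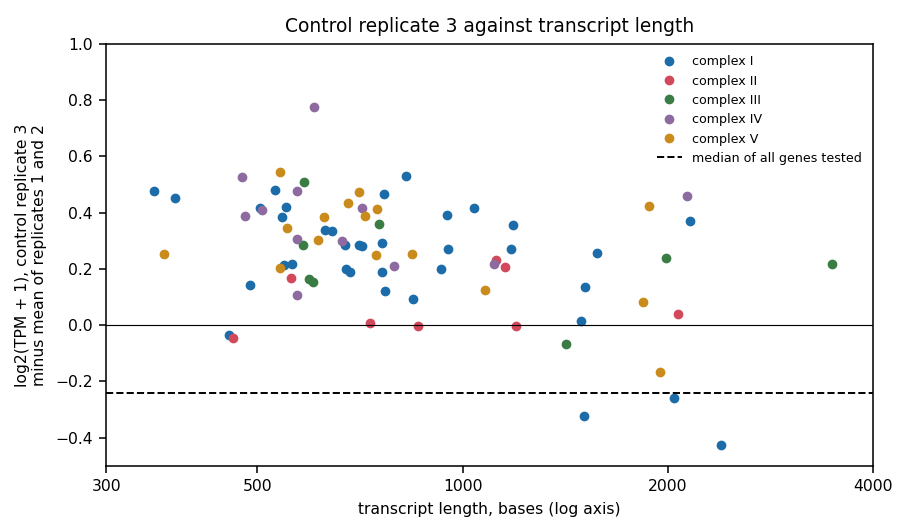
Deviation of control replicate 3 from the mean of control replicates 1 and 2, in log2(TPM + 1), against transcript length in bases (log axis) for the 80 genes, coloured by complex. Most genes lie above 0, with a median of 0.27, while the dashed line marks the median of all genes tested at -0.24.

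The question of the comparison was whether the transcripts of the respiratory chain and the ATP synthase moved after rutaecarpine. With limma and Benjamini-Hochberg adjustment over all genes tested, 1 of the 80 genes passed an adjusted p of at most 0.05 as higher (SDHA) and 0 as lower, where 4.6% of all genes tested were higher and 4.68% lower. At an unadjusted p under 0.05 there were 2 higher genes, SDHA among them, and 2 lower genes (ATP5MC1 and ATP5F1A), where 13.4% of all genes tested were higher and 11.0% lower. None of the 80 genes reached the thresholds for DEGs (the adjusted p together with an absolute log2 fold change above 1), which 2.01% of all genes passed as higher and 1.5% as lower. The fold changes were small. Their median was -0.03 on the log2 scale, beside 0.08 for all genes tested, and they ran from -0.58 (ATP5MC1) to 0.55 (SDHA). The 95% interval of the fold change lay within 2-fold in either direction for all 80 genes and within 1.5-fold for 72 of them. The highest library exceeded the lowest by less than 2-fold for 79 of the 80 genes, with ATP5MC1 as the exception. For 2 genes, with SDHA among them, the rutaecarpine libraries all lay above the control libraries, and for 7 genes all lay below, against 19.3% and 14.0% of all genes tested. These 7 were NDUFA3, NDUFV1, SDHD, ATP5F1A, ATP5F1B, ATP5F1C and ATP5MC1. Without control replicate 3, the groups separated upwards for 15 genes and downwards for 7, against 23.6% and 26.5% of all genes tested.

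Without control replicate 3, the median log2 fold change of the 80 genes was 0.04, beside -0.01 for all genes tested, and the number of genes with a positive value went from 26 to 51 of 80. That fit called SDHA, NDUFB9 and NDUFS5 as higher and ATP5MC1 and ATP5F1A as lower, where 8.2% of all genes were higher and 10.3% lower. With the correction for transcript length and GC content, 2 genes including SDHA were higher and 0 genes were lower, where 7.93% of all genes were higher and 9.74% lower. In that fit the median log2 fold change of the 80 genes was -0.07, beside 0.01 for all genes tested, and 23 of 80 were positive. TPM are shares of each library's transcripts, so a change in a gene cannot be told apart from a change in the rest of the pool. Each library holds the RNA of many cells together. Fewer cells that express a gene and less of its RNA per cell therefore cannot be told apart either.

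**Figure D2:**
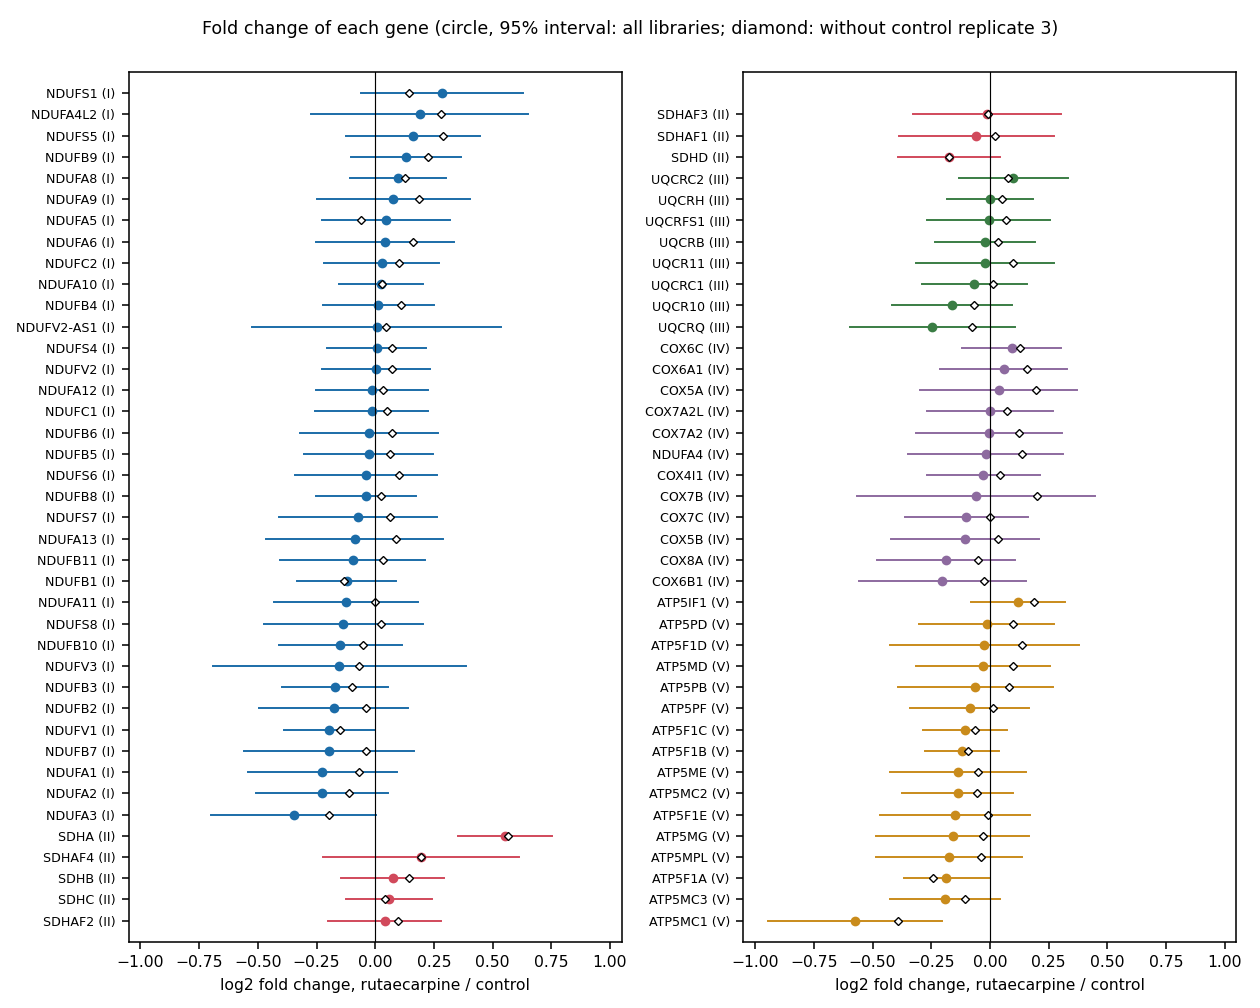
Log2 fold change (rutaecarpine to control) of 79 of the 80 genes, with the complex in parentheses, as circles with 95% intervals from all 6 libraries and as diamonds without control replicate 3. The interval of SDHA lies wholly above 0 (0.35 to 0.75) and that of ATP5MC1 wholly below (-0.95 to -0.20), and most other intervals include 0.

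Levels differed widely between members of one complex. In complex I the mean over all libraries ran from 16.8 TPM (NDUFV3) to 501 TPM (NDUFA13) among subunits, in complex III from 33.2 TPM (UQCRFS1) to 491 TPM (UQCRH), in complex IV from 62.6 TPM (NDUFA4) to 673 TPM (COX6A1) and in complex V from 57.1 TPM (ATP5MG) to 764 TPM (ATP5ME). The 4 subunits of complex II were lower, from 40.0 TPM (SDHD) to 113 TPM (SDHB). The 80 genes together took 1.64%, 1.64% and 2.00% of the TPM in the control libraries and 1.61%, 1.78% and 1.64% in the rutaecarpine libraries. These shares overlapped between the groups, with control replicate 3 the highest.

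**Figure D3:**
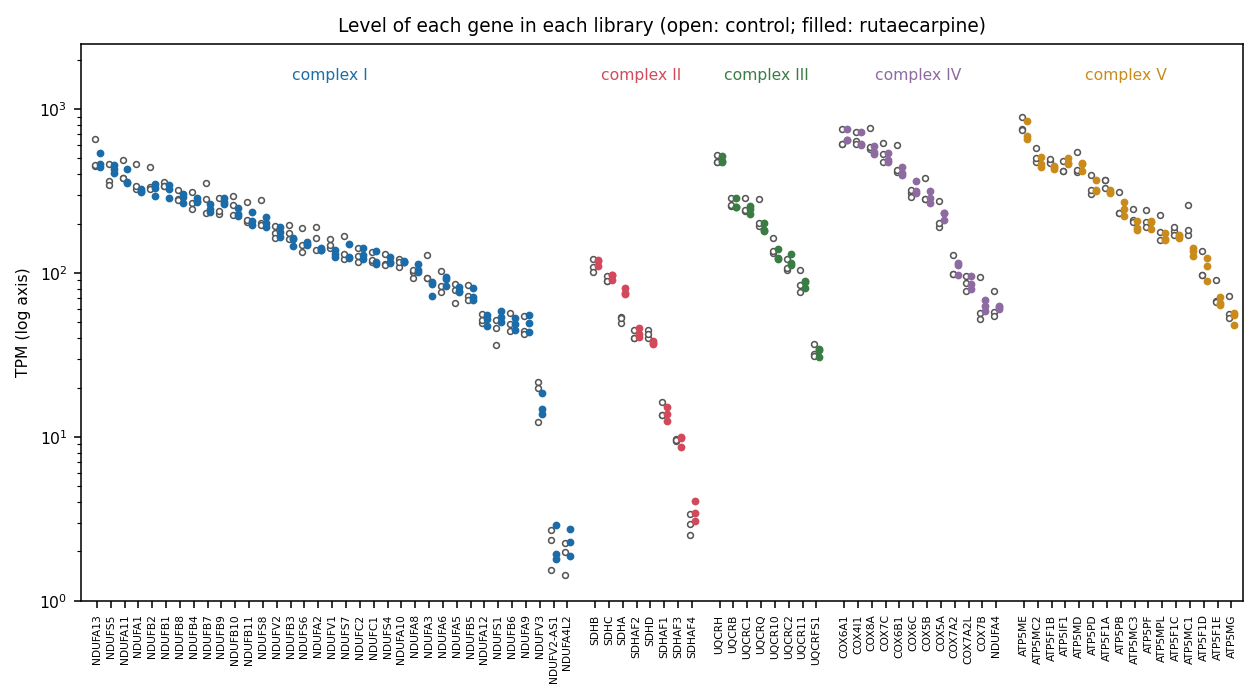
TPM (log axis) of 79 of the 80 genes in the 3 control libraries (open circles) and the 3 rutaecarpine libraries (filled circles), ordered by mean level within each complex. The groups overlap for most genes, and the highest subunit exceeds the lowest by 29.8-fold in complex I and by 10.7-fold in complex IV.

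Complex I passes electrons from NADH to ubiquinone and pumps protons. None of its 36 genes passed the test in the main fit, and their median log2 fold change was -0.03 (0.05 without control replicate 3). The 14 subunits of the matrix arm, which carries the electron path, had a median of 0.00 and the 20 subunits of the membrane arm, which pumps protons, one of -0.06. NDUFS1, the largest core subunit, which holds iron-sulfur clusters, was at 51.9, 46.2 and 36.2 TPM in control cells and 54.1, 50.03 and 58.6 TPM in treated cells. Its difference came in large part from control replicate 3, the lowest library, and the log2 fold change went from 0.28 to 0.14 without it. NDUFV1, the subunit that binds NADH and FMN, had values of 143, 149 and 160.2 TPM in controls and 125, 138 and 131 TPM after treatment, with a log2 fold change of -0.20 ± 0.08 (SE, limma adjusted p = 0.206). NDUFS1 and NDUFV1 thus differed in sign, and neither passed the test in the main fit. With library weights, NDUFV1 passed it (limma adjusted p = 0.0408), in a fit where 27.6% of all genes tested passed.

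In the membrane arm, NDUFA13, a subunit also known as GRIM-19, had the highest level of complex I, at 447, 458 and 654 TPM in controls and 446, 538 and 465 TPM in treated cells. Control replicate 3 stood above all other libraries here. NDUFA3, a small accessory subunit, had the lowest log2 fold change of complex I (-0.35, limma adjusted p = 0.210). It was at 93.8, 93.9 and 129 TPM in controls and 72.4, 85.5 and 88.2 TPM after rutaecarpine. Leaving out control replicate 3 gave a log2 fold change of -0.20. NDUFS5 and NDUFB9, both accessory subunits, passed the test only without that library or with library weights. For NDUFS5 the control libraries gave 364, 343 and 461 TPM and the rutaecarpine libraries 430.2, 457 and 410.1 TPM, and its log2 fold change went from 0.16 to 0.29 (limma adjusted p = 0.458 and 0.0262). NDUFB9 gave 229.8, 239 and 285 TPM and 271, 287 and 265 TPM, with log2 fold changes of 0.13 and 0.23 (limma adjusted p = 0.461 and 0.0480). In both genes, control replicate 3 lay within or above the treated libraries while the other controls lay below them. NDUFA4L2, a paralog of NDUFA4 known to be induced by hypoxia, was barely expressed, at 1.99, 1.44 and 2.26 TPM in controls and 2.28, 2.73 and 1.88 TPM in treated cells. It made up 2.91 ± 0.38% of the summed TPM of NDUFA4 and NDUFA4L2 in controls and 3.58 ± 0.65% after rutaecarpine (SD, n = 3 each). The antisense transcript NDUFV2-AS1 overlaps NDUFV2, and whether the counting used strand is not given in the sources used here, so its level is uncertain.

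Complex II, the succinate dehydrogenase, is shared between the respiratory chain and the citric acid cycle and has 4 subunits, all nuclear. SDHA (ENSG00000073578, chr5:218241-256700 on GRCh38, plus strand) encodes the flavoprotein that oxidizes succinate. Its level was 53.6, 49.7 and 53.0 TPM in control replicates 1 to 3 and 81.1, 74.2 and 75.4 TPM in rutaecarpine replicates 1 to 3. The lowest treated library stood above the highest control, and control replicate 3 lay among the other controls. The mean went from 52.1 ± 2.12 TPM to 76.9 ± 3.67 TPM (SD, n = 3 each), a rise of 1.48-fold with a log2 fold change of 0.55 ± 0.09 (SE, limma with Benjamini-Hochberg adjustment, adjusted p = 0.00913). Without control replicate 3 the log2 fold change was 0.57 (limma adjusted p = 0.00331). Among the other scalings and the leave-one-out fits, SDHA missed the threshold with the libraries centred on their medians (0.46, limma adjusted p = 0.108) and when rutaecarpine replicate 1 or 3 was left out (limma adjusted p = 0.0582 and 0.0528). It also missed the threshold with the replicate number as a block (limma adjusted p = 0.0724). SDHA was higher in every setting tried, with log2 fold changes from 0.46 to 0.60.

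The other 3 subunits gave smaller differences. SDHB, the iron-sulfur partner of SDHA in the catalytic head, was at 108, 102 and 121 TPM in controls and 110.4, 119.7 and 119 TPM in treated cells (log2 fold change 0.07, 95% interval -0.14 to 0.29, or 0.14 without control replicate 3). SDHC, a membrane anchor, was at 89.4, 95.2 and 89.4 TPM and 96.6, 91.3 and 97.4 TPM (log2 fold change 0.06, 95% interval -0.13 to 0.24). SDHD, the other anchor, was at 40.3, 44.7 and 42.4 TPM and 36.8, 37.1 and 38.6 TPM, with every treated library below every control (log2 fold change -0.17, 95% interval -0.39 to 0.04, limma adjusted p = 0.300). The upper bounds for SDHB, SDHC and SDHD all lie below the lower bound for SDHA (0.35). Within each library, the ratio of SDHA to SDHB was 0.47 ± 0.03 in controls and 0.66 ± 0.06 after rutaecarpine (SD, n = 3 each). The ratio of SDHA to SDHC went from 0.57 ± 0.04 to 0.81 ± 0.03, and that of SDHA to SDHD from 1.23 ± 0.11 to 2.05 ± 0.13. None of these ratios overlapped between the groups. Among the assembly factors, SDHAF2, which helps to attach the flavin to SDHA, was at 40.1, 40.2 and 45.2 TPM in controls and 40.6, 46.4 and 42.3 TPM in treated cells, and 0 of the 4 factors passed the test (median log2 fold change 0.01).

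SDHA has near-identical pseudogene copies, between which RSEM divides reads, so its values are uncertain to that extent. The most abundant copy was SDHAP1, with 18.8, 14.2 and 7.12 TPM in controls and 13.3, 14.1 and 17.7 TPM in treated cells. SDHAP4 was at 17.3, 15.9 and 9.32 TPM and 11.3, 12.0 and 16.0 TPM. Both overlapped between the groups and were lowest in control replicate 3, unlike SDHA. SDHAP2 was at 3.19, 3.01 and 2.67 TPM and 4.32, 3.57 and 3.40 TPM. All its treated libraries lay above its controls, as for SDHA, at a far lower level. SDHAP3 was at 0.90 to 1.45 TPM.

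**Figure D4:**
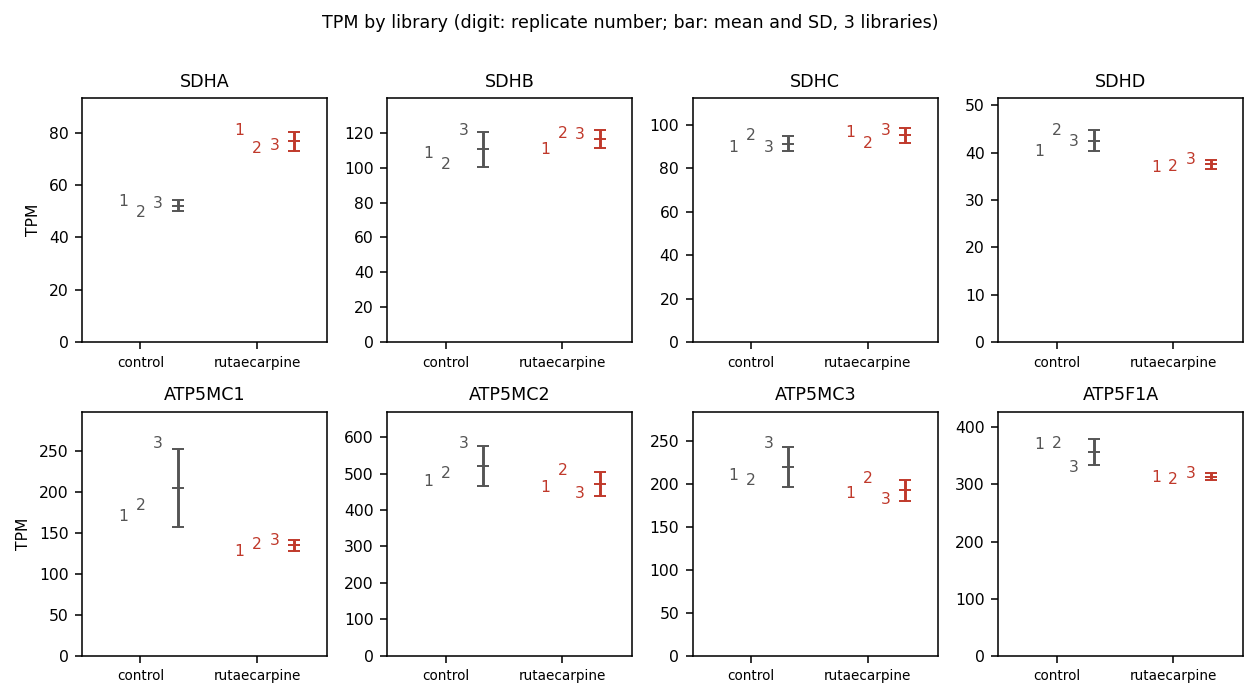
TPM in each library for the 4 subunits of complex II and for 4 subunits of complex V, with digits giving the replicate number and bars the mean and SD of 3 libraries. The treated libraries of SDHA (74.2 to 81.1 TPM) lie above its controls (49.7 to 53.6 TPM), and those of ATP5MC1 (127 to 141 TPM) lie below its controls (170.3 to 259 TPM).

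Promoter sequence is shown for SDHA because it was the gene that passed the test. Promoters from RefSeq (GRCh38.p14, 250 bases before to 50 after the annotated start) were matched for 69 of the 80 genes and searched on both strands for the letters GCGCA and GCGC with any 1 base between them, bound by nuclear respiratory factor NRF1, CCGGAAG (the ETS factor GABPA), AANATGGC (YY1) and CACGCNA (AhR). The SDHA promoter held 4 matches to the NRF1 letters, which began 166, 117, 68 and 19 bases before the start and so followed each other at steps of 49 bases. They are printed 5′ to 3′ with 10 bases on either side and the matching letters in capitals.
SDHA site 1, chr5:218144-218173, plus strand: ggtccgctttGCGCAGGCGCggcgccccca
SDHA site 2, chr5:218193-218222, plus strand: gtggcatggtGCGCAGGCGCgatgtccccc
SDHA site 3, chr5:218242-218271, plus strand: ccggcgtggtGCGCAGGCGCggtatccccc
SDHA site 4, chr5:218291-218320, plus strand: ccggtgtggtGCGCAGGCGCagtctgcgca
The matching letters were the same at the 4 sites, and the promoter held 0 matches to the other motifs. For contrast, the stretch before ATP5MC1 that no annotated exon covers held 0 matches to any of the 4 motifs, as did the whole ATP5MC1 promoter.
ATP5MC1, chr17:48892678-48892764, plus strand: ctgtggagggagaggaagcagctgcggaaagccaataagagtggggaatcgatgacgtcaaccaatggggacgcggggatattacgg
The promoter of SDHB held 1 match each to the GABPA and YY1 letters, and that of SDHD 1 match each to the NRF1 and GABPA letters. Over the 69 promoters, NRF1 letters occurred in 17 (24.6%, against 6.29% of all 27305 promoters), GABPA letters in 21 (30.4%, against 10.7%) and YY1 letters in 20 (28.99%, against 6.82%). The AhR letters occurred in 3 (4.35%, against 5.51%), those of COX7A2L, NDUFA12 and NDUFB11, none of which passed the test. In GENCODE release 29, the matches of sites 1 and 2 lie in the first exon of CCDC127 on the opposite strand, and sites 3 and 4 in the first exon of the longer SDHA transcripts. CCDC127 (ENSG00000164366), a gene of little known function, was at 2.67, 2.75 and 2.24 TPM in controls and 4.11, 3.57 and 3.63 TPM in treated cells, without overlap but short of the threshold (log2 fold change 0.43 ± 0.16, SE, limma adjusted p = 0.163).

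Complex III carries electrons from ubiquinol to cytochrome c. None of its 8 genes passed the test, with a median log2 fold change of -0.02 (0.04 without control replicate 3), and in none did the groups separate. UQCRFS1, the Rieske iron-sulfur subunit, was at 31.9, 31.1 and 36.8 TPM in controls and 30.8, 34.0 and 34.6 TPM after rutaecarpine. The core protein UQCRC1 was at 240.0, 242 and 285 TPM and 246, 256 and 229 TPM. UQCRH, the hinge protein, had the highest level and one of the smallest differences, with 473, 474 and 527 TPM in controls and 473, 515 and 484 TPM in treated cells (95% interval of the log2 fold change -0.18 to 0.18). The extremes were the core protein UQCRC2 (log2 fold change 0.10) and the small subunit UQCRQ (-0.25). UQCRC2 gave 122, 104 and 108 TPM in controls and 115, 112 and 130.2 TPM in treated cells. UQCRQ gave 194, 203 and 282 TPM and 181, 202 and 182 TPM, and without control replicate 3 its log2 fold change was -0.08.

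Complex IV, the cytochrome c oxidase, reduces oxygen to water. None of its 12 genes passed the test or had groups that separated, and their median log2 fold change was -0.02, or 0.10 without control replicate 3. COX4I1, a regulatory subunit next to the catalytic core, was at 641, 613 and 726 TPM in controls and 607, 722 and 615 TPM in treated cells. COX5A, which binds the thyroid hormone diiodothyronine, was at 190.4, 203 and 274 TPM and 234, 232 and 211 TPM. COX6A1 had the highest level, with 614, 610.1 and 756 TPM and 645, 760.3 and 652 TPM. The levels of these 3 genes overlapped between the groups. The highest log2 fold change was that of COX6C (0.09), with 306, 293 and 322 TPM in controls and 306, 362 and 316 TPM after treatment. It missed the threshold. The lowest was that of COX6B1 (-0.20), with 415, 427 and 607 TPM and 396, 440.5 and 405 TPM, and it was -0.03 without control replicate 3. COX8A was at 567, 589.9 and 768 TPM and 551, 592 and 533 TPM, again with control replicate 3 the highest.

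Several subunits of complex IV have tissue-specific isoforms. The 6 genes dropped for low level were such isoforms (COX4I2, COX6A2, COX6B2, COX7A1, COX7B2 and COX8C), and none exceeded 0.23 TPM in any library of either group. COX4I2 is known to be induced by hypoxia in lung, and COX6A2 and COX7A1 belong to heart and skeletal muscle. The widely expressed isoforms held 99.97% to 100% of the summed TPM of the COX4, COX6A, COX6B, COX7B and COX8 families in every library. COX7B itself was at 57.2, 52.7 and 94.6 TPM in controls and 62.5, 68.4 and 58.9 TPM in treated cells. COX7A2 (98.8, 98.8 and 129.6 TPM and 97.4, 115 and 112 TPM) took 55.4 ± 2.16% of the COX7A family in controls and 55.4 ± 1.09% after rutaecarpine (SD, n = 3 each). COX7A2L took most of the rest, with 87.2, 78.1 and 96.1 TPM and 79.6, 96.2 and 85.6 TPM. NDUFA4 was at 58.1, 54.5 and 77.7 TPM and 60.6, 62.2 and 62.7 TPM.

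Complex V makes ATP, with a catalytic F1 head on a membrane part that holds a rotating ring of c subunits. Its 16 genes had the lowest median of the 5 complexes, at -0.13. That median was -0.03 without control replicate 3 and -0.16 with the length and GC correction. The log2 fold change was negative for 15 of 16 genes (10 without control replicate 3 and 14 with the correction). None passed the test in the main fit. With library weights, ATP5MC1, ATP5F1A and ATP5IF1 passed it (limma adjusted p = 0.00389, 0.00725 and 0.0427), where 27.6% of all genes tested passed. ATP5MC1 also passed with quantile normalization, where 12.6% of all genes did. Control replicate 3 was the highest library for 14 of the 16 genes. ATP5MC1 (ENSG00000159199, chr17:48892765-48895871 on GRCh38, plus strand), one of 3 genes for the same mature c subunit, was at 170.3, 184 and 259 TPM in controls and 127, 135 and 141 TPM in treated cells. All treated libraries lay below all controls, and control replicate 3 stood far above the other controls. The log2 fold change was -0.58 ± 0.16 (SE, n = 3 per group, limma adjusted p = 0.0699). Without control replicate 3 it was smaller, at -0.39, and passed the test (limma adjusted p = 0.0106).

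The other c subunit genes differed less. ATP5MC2 was at 479, 501 and 582 TPM in controls and 461, 510.1 and 445 TPM in treated cells (log2 fold change -0.14, or -0.05 without control replicate 3). ATP5MC3 was at 210.0, 204 and 247 TPM and 189, 206 and 182 TPM (log2 fold change -0.19, or -0.11 without that library). Within the family, ATP5MC1 took 19.8%, 20.7% and 23.8% of the summed TPM in controls and 16.4%, 15.9% and 18.4% after rutaecarpine. ATP5MC2 took 55.2 ± 1.49% and 59.0 ± 1.00%, and ATP5MC3 23.4 ± 0.93% and 24.1 ± 0.33% (SD, n = 3 each). The shares of ATP5MC1 and ATP5MC2 did not overlap between the groups, in opposite directions, while those of ATP5MC3 did.

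In the F1 head, ATP5F1A, the alpha subunit, was at 370.0, 371 and 330.1 TPM in controls and 312, 308 and 320.1 TPM in treated cells. Control replicate 3 was the lowest of its controls, so the log2 fold change of -0.19 (limma adjusted p = 0.195) went to -0.24 without it and passed the test (limma adjusted p = 0.0241). ATP5F1B, the catalytic beta subunit, was at 476, 468 and 499 TPM and 433, 444 and 452 TPM (log2 fold change -0.12, limma adjusted p = 0.333). ATP5F1C, the gamma subunit of the central stalk, was at 179.8, 169.94 and 191 TPM and 169.90, 163 and 168 TPM (log2 fold change -0.11, or -0.07 without control replicate 3). For all 3 genes the treated libraries lay below the controls, barely so for ATP5F1C, with ratios of the means of 0.877 (ATP5F1A), 0.921 (ATP5F1B) and 0.927 (ATP5F1C). ATP5ME, a small membrane subunit, had the highest level of the 80 genes, at 759.8, 742 and 894 TPM in controls and 658, 845 and 685 TPM in treated cells. ATP5IF1, the inhibitor that stops the enzyme from running backwards, was at 422, 418 and 484 TPM and 466, 504 and 465 TPM. It was the only gene of complex V with a positive log2 fold change in the main fit (0.12, limma adjusted p = 0.438, or 0.19 without control replicate 3).

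Summed over each complex, the TPM described the share of the transcript pool given to it. For complex I the sums were 5974, 6000 and 7394 TPM in controls and 5898, 6496 and 6054 TPM in treated cells, a ratio of 0.953 (1.03 without control replicate 3). Complex III gave a ratio of 0.961 (1.02), complex IV one of 0.956 (1.04) and complex V one of 0.928 (0.988). For these 4 complexes the groups overlapped, and the ratio passed 1 for complexes I, III and IV once that library was left out. Complex II summed to 357, 359 and 380 TPM in controls and 394, 395 and 398 TPM in treated cells, a ratio of 1.08 (1.11), with no overlap. SDHA supplied 24.8 TPM of the 30.4 TPM between the group means of complex II. The ratio of complex II was 1.00 with the libraries centred on their medians.

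**Figure D5:**
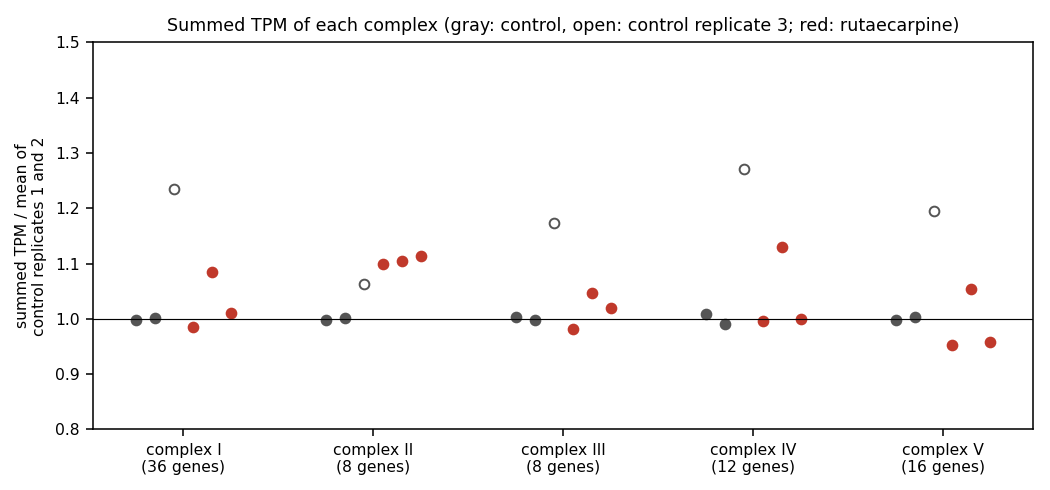
Summed TPM of the genes of each complex in each library, divided by the mean of control replicates 1 and 2, with controls in gray (replicate 3 open) and rutaecarpine libraries in red. Control replicate 3 is the highest library in complexes I, III, IV and V, and the treated libraries of complex II lie above all its controls.

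The 13 subunits encoded in mitochondrial DNA were compared as the partners of the nuclear subunits. None passed the test, their median log2 fold change was 0.00, and they ranged from -0.13 (MT-ND1) to 0.11 (MT-ATP8). Their summed TPM was 86818, 80875 and 74917 in controls and 88582, 78332 and 80205 in treated cells, a ratio of 1.02 (0.982 without control replicate 3). MT-CO1, the catalytic subunit of complex IV, was at 9277, 8741 and 7406 TPM in controls and 8425, 7842 and 8056 TPM in treated cells. MT-CYB, the cytochrome b of complex III, was at 1986, 1908 and 2082 TPM and 2207, 2026 and 2033 TPM. MT-ATP6, the proton channel subunit of complex V, was at 6171, 5813 and 5479 TPM and 5976, 5733 and 5385 TPM. The groups overlapped for all 13. MT-ATP8 overlaps MT-ATP6 and MT-ND4L overlaps MT-ND4, so reads in the shared stretch cannot be told apart. Among the subunits and carriers that the name rule misses (NDUFAB1, CYC1 and CYCS), 0 of 3 passed the test, with a median of 0.17. NDUFAB1, the mitochondrial acyl carrier protein, which sits in complex I, was at 114, 112 and 113 TPM in controls and 133, 139 and 141 TPM in treated cells. Its groups did not overlap, its controls were tightly placed, and it passed the test only without control replicate 3 among the leave-one-out fits (log2 fold change 0.28, limma adjusted p = 0.0559, and 0.0228 without it). Cytochrome c (CYCS) was at 76.6, 73.2 and 90.6 TPM and 94.2, 97.9 and 79.2 TPM. Cytochrome c1 (CYC1) was at 117, 115 and 153 TPM and 136, 123 and 127 TPM.

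Assembly factors of the complexes were read in the same fit, in which 4.6% of all genes tested were higher and 4.68% lower. Of 17 factors of complex I, 1 rose and 1 fell (median log2 fold change 0.02). NDUFAF2, a chaperone that acts late in complex I assembly, rose from 39.4, 43.2 and 47.8 TPM to 61.5, 64.4 and 65.6 TPM (log2 fold change 0.55, limma adjusted p = 0.0181). COA1, a factor for both complexes I and IV, fell from 62.9, 65.1 and 64.0 TPM to 47.3, 47.2 and 42.3 TPM (log2 fold change -0.48, limma adjusted p = 0.0181). Their groups did not overlap, but each missed the threshold in every leave-one-out fit except that without control replicate 3. None of the 6 factors of complex III (median -0.25), the 23 of complex IV (0.02) or the 5 of complex V (0.01) passed the test. For complex III, BCS1L, which inserts the Rieske protein, was at 21.8, 21.7 and 22.7 TPM in controls and 16.5, 16.8 and 19.1 TPM in treated cells. TTC19, which clears fragments of that protein, was at 22.7, 20.9 and 17.7 TPM and 25.7, 25.7 and 32.6 TPM. The groups of BCS1L and TTC19 were separate and lay in opposite directions (limma adjusted p = 0.139 and 0.128). Of the 6 factors, 1 had all treated libraries above all controls and 3 had all below. Among all genes tested these shares were 19.3% and 14.0%. Those below included UQCC2 and UQCC3 (log2 fold change -0.42 and -0.40, limma adjusted p = 0.164 and 0.180).

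Transcription and biogenesis factors were measured for 15 of the 16 listed genes, of which 0 rose and 1 fell. Among all genes tested, 4.6% were higher and 4.68% lower. TFB1M, a methyltransferase of the mitochondrial small ribosomal RNA, fell from 18.9, 18.6 and 21.5 TPM in controls to 12.2, 11.9 and 11.4 TPM in treated cells (log2 fold change -0.68 ± 0.12, SE, limma adjusted p = 0.0161). The treated libraries lay clearly below the controls, yet in the leave-one-out fits the call held only without control replicate 3. PPARGC1A, the coactivator PGC-1alpha, was at 4.16, 5.30 and 1.64 TPM and 1.45, 0.870 and 2.63 TPM, low and widely spread (log2 fold change -0.79, limma adjusted p = 0.265, and -1.16 with 0.0328 without control replicate 3). Its relative PPRC1 was at 28.8, 25.9 and 22.0 TPM and 19.7, 19.5 and 19.8 TPM, without overlap, and passed the test only without that library among the leave-one-out fits (log2 fold change -0.35, limma adjusted p = 0.149 and 0.0169). NRF1 and GABPA, whose motifs were searched in the promoters, had groups that overlapped. NRF1 was at 6.68, 7.83 and 7.47 TPM in controls and 7.83, 7.29 and 6.47 TPM in treated cells. GABPA was at 10.9, 11.3 and 4.60 TPM and 12.4, 10.1 and 13.9 TPM. The receptor ESRRA was at 34.0, 31.4 and 42.5 TPM and 44.5, 39.6 and 35.9 TPM. Control replicate 3 was the lowest library for GABPA and also for TFAM, which packages mitochondrial DNA. TFAM was at 17.9, 20.2 and 8.95 TPM and 19.1, 16.4 and 17.8 TPM.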

How the data were processed

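RNA-Seq libraries of U87 cells were grouped by their labels into solvent control (n = 3) and rutaecarpine (n = 3). The authors quantified genes with RSEM and deposited TPM values for 60671 genes, with GRCh38.p13 as the build in the submitters' processing notes, which list DESeq2 and edgeR among the authors' tools. The aligner and filters are not given in the sources used here. As TPM do not carry the number of reads behind a value, library depth is unknown, no counting error can be given and methods for counts were not used. The precision therefore comes from the spread between libraries.

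TPM were transformed to log2(TPM + 1), which understates the change of weakly expressed genes. The comparison covered 14377 genes that reached 1 TPM in 3 or more libraries and was made with limma 3.58.1 in R 4.3.3 (empirical Bayes with a mean-variance trend, two-sided), with Benjamini-Hochberg adjustment over all of them and a threshold of 0.05. An exact permutation test of 3 libraries against 3 cannot go below p = 0.1 for a single value. The test was tried on simulated data. GENCODE release 29 on GRCh38 gave gene positions, transcript lengths and GC content, with the transcript of median length taken for each gene, and promoters from RefSeq on GRCh38.p14. Tables and figures were made in Python 3.11.15 with pandas 2.3.3, numpy 2.4.6 and matplotlib 3.10.9.

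Members with values in every library were those with an adjusted p of at most 0.05 in the main fit or without control replicate 3, the largest rise, largest fall and highest level of each complex, the isoform families and the central subunits. From the other lists, the rule named DEGs, mitochondrially encoded subunits and 6 regulators, and other genes of those lists and CCDC127 were named after their values were seen. The values of 1 member are not reported here, although it is part of the counts. Members and lists were chosen with earlier results of these data known. The lists cover subunits encoded in mitochondrial DNA, subunits missed by the name rule, assembly factors, biogenesis factors, citric acid cycle, glycolysis and both kinds of ribosomal proteins, and were described by counts and medians. The alternatives were median centring, quantile normalization, a spline correction (5 degrees of freedom, 14267 genes) for GC content and transcript length, limma without the trend, other filters, a pseudocount of 0.1, limma's array weights, the replicate number as a block, and leaving out each library.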

Additional observations from a re-analysis of the deposited data

How the results depend on the processing

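Of 911 alternative values of named genes, 823 kept their side of the threshold or moved by less than the spread between replicates, 31 lost the call, 24 gained it, 33 moved without a call and 0 reversed a call. The sign turned in 68 of them, all short of the threshold in both fits. Of 440 alternative counts, medians and ratios of sums, 69 moved. SDHA was the 1 member called higher in the main fit. That number was 5 with array weights, 2 with the length and GC correction and 0 with median centring. In these fits 27.6%, 17.7% and 9.59% of all genes passed, both directions together, against 9.29% in the main fit. When single libraries were left out, the number was 0 to 3 (3 without control replicate 3, 0 without rutaecarpine replicate 1 or 3). In those fits 3.75% to 18.5% of all genes passed, both directions together. The number called lower was 0, against 3 with array weights, 1 with quantile normalization (ATP5MC1) and 0 to 2 with single libraries left out (2 without control replicate 3). With quantile normalization, 12.6% of all genes passed, both directions together. Array weights gave control replicate 3 a weight of 0.121. Over the other lists, of 3 to 79 tested genes each, 3 genes were higher and 7 lower, where 4.6% of all genes tested were higher and 4.68% lower. These counts went to 20 and 32 with array weights, 9 and 16 with the length and GC correction and 1 and 2 with median centring. There were 4 lower without the trend and 13 lower with quantile normalization. With single libraries left out, the counts ran from 1 to 10 higher and 2 to 17 lower. The shares of all genes in these fits are those given above, and 8.43% without the trend. The median log2 fold change of complex II (0.05) was -0.044 with median centring and -0.016 with quantile normalization. The ratio of summed TPM was 1.00 for complex II (1.08 as reported) and 0.886 for complex III (0.961) with median centring. The cause was not tested. With the replicate number as a block, 0 members were higher and 0 lower, and 0 genes of the other lists were higher and 1 lower (2 lower with the length and GC correction added). Same-numbered libraries deviated from their group means with correlations of 0.116, -0.266 and -0.215. With 3 libraries per group, these values cannot tell whether same-numbered libraries were handled together. With the block, SDHA had a limma adjusted p of 0.0724. Over all genes 428 passed with the block and 1335 without it. The unknown depth sets no limit that could be computed here.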

Other observations

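Other lists of energy metabolism and translation were read in the same fit, as counts and medians. In glycolysis, 1 of 17 enzymes rose and 3 fell (limma with Benjamini-Hochberg adjustment), where 4.6% of all genes tested were higher and 4.68% lower. The median log2 fold change of these enzymes was -0.24. HK2, the hexokinase that binds mitochondria, rose from 112, 111 and 54.3 TPM in controls to 249, 213 and 237 TPM in treated cells (log2 fold change 1.40, limma adjusted p = 0.0211). Control replicate 3 was the lowest library for HK2, and the log2 fold change was 1.06 without it. ENO1 fell from 3683, 3650.1 and 3764 TPM to 2635, 2611 and 2350.4 TPM (-0.55 on the log2 scale, limma adjusted p = 0.00651). PFKL, the liver-type phosphofructokinase, fell from 218, 219 and 211 TPM to 168, 161 and 154 TPM (-0.42, limma adjusted p = 0.0132). PKM, the pyruvate kinase, fell from 3448, 3444 and 3603 TPM to 2995, 2729.7 and 2733 TPM (-0.31, limma adjusted p = 0.0488). Without control replicate 3, 1 enzyme was higher and 8 were lower, where 8.2% of all genes were higher and 10.3% lower.

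Of 18 enzymes of the citric acid cycle and pyruvate dehydrogenase, 0 rose and 1 fell, with a median of 0.00. Among all genes tested, 4.6% were higher and 4.68% lower. IDH2, the mitochondrial NADP-dependent isocitrate dehydrogenase, fell from 47.5, 49.4 and 56.9 TPM to 28.1, 30.9 and 30.8 TPM, with no overlap between the groups (log2 fold change -0.75, limma adjusted p = 0.00662). Of 79 mitochondrial ribosomal proteins, 1 rose and 0 fell, with a median of 0.01. Without control replicate 3, 6 rose and 0 fell, where 8.2% of all genes were higher and 10.3% lower. The gene that rose in the main fit was MRPS6, which went from 170.0, 152 and 182 TPM to 265, 275 and 246 TPM (log2 fold change 0.64, limma adjusted p = 0.00739). At an unadjusted p under 0.05, 7 of these proteins were higher and 2 lower, where 13.4% of all genes tested were higher and 11.0% lower.

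Of 79 cytosolic ribosomal proteins, 0 rose and 1 (RPL12) fell, where 4.6% of all genes tested were higher and 4.68% lower. The median of these proteins was -0.15, or -0.05 without control replicate 3. That library held the highest value for 77 of the 79 genes, as it did for 54 of the 80 genes of oxidative phosphorylation. The cytosolic ribosomal proteins, like those 80 genes, have short transcripts, with a median of 691 bases. Of all genes tested with transcripts under 1000 bases, 28.2% were highest in control replicate 3, against 73.7% of the members with such transcripts. The part of transcript length was not tested.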
